A study of Macaca fascicularis with 2 samples.

Results

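Activins, inhibins and anti-Müllerian hormone (AMH) are TGF-β family ligands of the gonad, and the 8 genes described here encode their subunits, their extracellular inhibitor and their receptors. INHA encodes the inhibin α subunit, INHBA and INHBB encode the βA and βB subunits, FST encodes follistatin, ACVR1B, ACVR2A and ACVR2B encode activin receptors, and AMHR2 encodes the type II receptor of AMH. The genes were taken by name, and all 8 were found among the 18446 genes of the table.

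Activins are dimers of β subunits and signal through a type II receptor (ACVR2A or ACVR2B) and a type I receptor (ACVR1B) to SMAD2 and SMAD3. Inhibins pair the α subunit with a β subunit and antagonise activin at the type II receptors, helped by the co-receptor betaglycan (TGFBR3), whereas follistatin binds activin and keeps it from its receptors. In the ovary, granulosa cells of growing follicles are the known source of inhibin and AMH, and activin is known to act on germ cells as well as on granulosa cells.

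Single cells of dissociated cynomolgus monkey (Macaca fascicularis) ovaries were profiled from 1 fetus at embryonic day 84 (E84) and 1 at embryonic day 116 (E116), with the pair of ovaries of each fetus digested with a tumour dissociation kit and loaded as 1 library with 10x Genomics 3′ v3 chemistry. With 1 animal per stage there are no replicates, so no test between groups was made and every interval given below is a 95% interval that covers counting error only. The table holds 20967 cells, whose barcodes end in 1 (10621 cells, median 3130 UMIs, or unique molecules counted) or in 2 (10346 cells, median 4555.5 UMIs). Nothing in it assigns an ending to a stage, so the endings are treated as unlabelled sets of barcodes, and stage and ending cannot be told apart.

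Cells were grouped into 21 clusters without use of the 8 genes or of the other pathway genes, and a cluster was named only from marker genes. Of these, 3 were granulosa-like and 3 stroma-like, 1 was ovarian surface epithelium-like, 7 were germ cell-like and 4 were endothelial-, macrophage-, erythroid- or pericyte-like. Clusters are called here by a leading gene. The granulosa-like clusters are the SOST cluster (2167 cells, 2132 with ending 1), a shallow cluster (876 cells, median 708 UMIs, 834 with ending 1) and the PCP4 cluster (611 cells, 506 with ending 2). The PCP4 cluster carried 4 of 13 granulosa markers (WNT6, SERPINE2, HSD17B1 and GATM), none of them among its 10 leading genes, which include AMH and INHA. Its median share of mitochondrial UMIs was 14.2%, against 10.5% in the SOST cluster. A further 3 clusters stayed unnamed. The RGS4 cluster (1005 cells, 1004 with ending 2) carried 6 of 13 granulosa markers but had a neural crest gene among its leading genes. The CBLN2 cluster (805 cells, all with ending 2) carried 4 of 8 pericyte markers. Its summed pericyte marker level was 1533 counts per 1000000 UMIs (CPM), against 8897 CPM in the pericyte-like cluster. RGS5 alone gave 1136 of the 1533 CPM, and stood at 661 CPM in the SOST cluster. The summed granulosa marker level of the CBLN2 cluster was 776 CPM, against 2185 CPM in the SOST cluster. The authors reported CBLN2, LYPD1 and ADIRF, leading genes of this cluster, as peaking in a granulosa cluster. The remaining unnamed cluster (1699 cells, 1688 with ending 2) had a median of 49.2% mitochondrial UMIs, and its levels are given only where they matter.

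INHA was highest in the PCP4 cluster. Of the 2512 INHA UMIs in the table, 44.8% came from its 611 cells, at 188 CPM (177 to 199). The next clusters were the mitochondria-rich cluster at 83.4 CPM (74.0 to 93.6), the INSL3 stroma-like cluster at 30.8 CPM (23.7 to 39.4), the C7 stroma-like cluster at 19.7 CPM (17.5 to 22.0), the CBLN2 cluster at 18.05 CPM (15.5 to 20.9) and the RGS4 cluster at 15.3 CPM (13.3 to 17.6). With mitochondrial UMIs left out of the totals, the mitochondria-rich cluster was at 178 CPM and the PCP4 cluster at 224 CPM. Among the others, the intervals of the C7 and CBLN2 clusters overlapped, as did those of the CBLN2 and RGS4 clusters. The SOST cluster held 7.79 CPM (6.42 to 9.37), the surface epithelium-like cluster 4.15 CPM (3.15 to 5.37) and the germ cell-like clusters between 1.30 and 5.90 CPM. Thus the α subunit was 24.1-fold higher in the PCP4 than in the SOST cluster, a log2 ratio of 4.59 (4.31 to 4.88).

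The share of cells with an INHA UMI was also highest in the PCP4 cluster. After every cell was thinned to 1000 UMIs, 14.1% (11.4 to 17.1) of 604 PCP4 cells had one, compared with 0.833% (0.494 to 1.31) of 2161 SOST cells and 0 of 651 erythroid-like cells, which should lack the gene; this allows a share of up to 0.461%. Shallower cells left out were 7, 6 and 93 of these clusters, and the median depths of those kept were 7046, 5024 and 4677 UMIs. Without thinning the shares were 52.2%, 4.71% and 0.538%. After thinning, the mitochondria-rich cluster followed the PCP4 cluster, with 4.47% (3.47 to 5.66). The RGS4 cluster, at 1.29% (0.691 to 2.20), and the CBLN2 cluster, at 0.746% (0.274 to 1.62), had overlapping intervals, as they had in CPM.

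In the stroma-like clusters INHA rested on few cells. The C7 cluster (2466 of 2476 cells with ending 2) had 298 UMIs in 124 cells, and its 10 highest cells held 50.7% of them. In the INSL3 cluster, named for the theca and Leydig cell hormone, 63 UMIs lay in 11 of 193 cells. By contrast, the POSTN stroma-like cluster, with 1871 of 1928 cells of ending 1, held 17 INHA UMIs, or 2.13 CPM (1.24 to 3.41). Within ending 2, where the C7 cluster was at 19.7 CPM, endothelial-like cells were at 1.93 CPM (0.882 to 3.66) and pericyte-like cells had 1 INHA UMI. Among C7 cells with at most 10% mitochondrial UMIs the level was 8.40 CPM (6.91 to 10.1). The comparison of the C7 with the POSTN cluster is also one of ending 2 with ending 1.

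**Figure D1:**
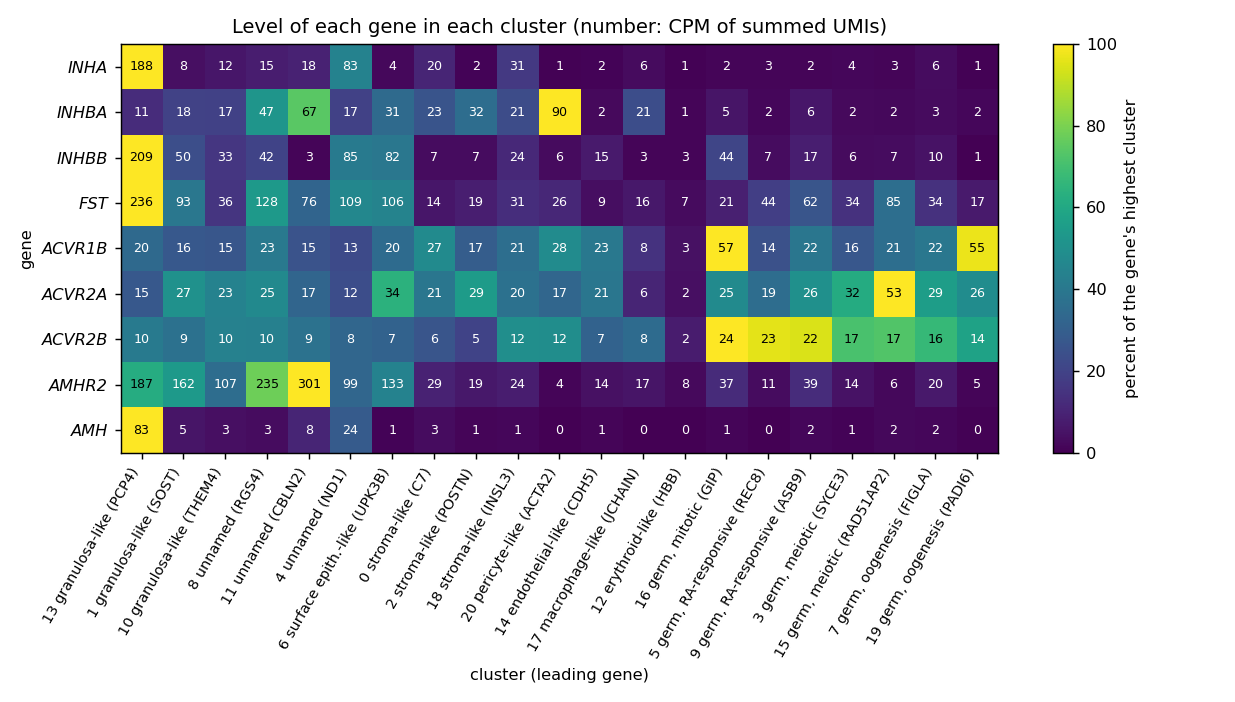
Level of each of the 8 genes and of AMH (rows) in each of the 21 clusters (columns, with a leading gene), as CPM of the summed UMIs (numbers), coloured by the percent of that gene's own highest cluster, so that colours compare clusters within a row. INHA, INHBB, FST and AMH are highest in the PCP4 cluster, AMHR2 in the CBLN2 cluster, INHBA in the pericyte-like cluster, and the 3 activin receptors in germ cell-like clusters.

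The βA and βB subunits differed in where they were found. INHBA was highest in the pericyte-like cluster at 89.9 CPM (69.0 to 115), although 10 of its 136 cells held 90.3% of the 62 UMIs there and its 122 cells with at most 3000 genes stood at 27.9 CPM (14.4 to 48.7). Next, with an overlapping interval, came the CBLN2 cluster at 66.9 CPM (61.9 to 72.3) and the RGS4 cluster at 46.9 CPM (43.3 to 50.7), where the UMIs were spread over 304 and 323 cells. The POSTN stroma-like cluster at 32.1 CPM (28.3 to 36.2) and the surface epithelium-like cluster at 31.2 CPM (28.3 to 34.3) did not differ beyond counting error, but among cells with at most 3000 genes they stood at 35.8 CPM (31.0 to 41.1) and 19.1 CPM (14.5 to 24.6). The PCP4 cluster was among the lower somatic clusters, at 11.3 CPM (8.80 to 14.4). Germ cell-like clusters held 1.56 to 5.59 CPM.

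INHBB had its highest level where INHBA was low. It reached 209 CPM (197 to 221) in the PCP4 cluster, followed by the mitochondria-rich cluster at 85.1 CPM (75.7 to 95.4) and the surface epithelium-like cluster at 82.5 CPM (77.8 to 87.4), which overlapped. Without mitochondrial UMIs in the totals, these clusters were at 249, 181 and 91.3 CPM. The SOST cluster was at 50.4 CPM (46.8 to 54.2), the mitotic germ cell-like cluster at 44.0 CPM (38.98 to 49.5) and the RGS4 cluster at 42.2 CPM (38.8 to 45.8). The CBLN2 cluster had only 26 INHBB UMIs in 805 cells, of which 16 came from 1 cell, giving 2.68 CPM (1.75 to 3.93). INHBA made up 96.1% (94.4 to 97.5) of the UMIs of both β subunits in the CBLN2 cluster, 52.6% (49.7 to 55.5) in the RGS4 cluster, 27.5% (25.3 to 29.7) in surface epithelium-like cells, 26.1% (23.4 to 28.9) in the SOST cluster and 5.15% (4.02 to 6.48) in the PCP4 cluster. The INHBA share thus differed among clusters that all expressed AMHR2.

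In surface epithelium-like cells INHA made up a small share of the subunit UMIs. It contributed 4.79% (3.66 to 6.15) to their INHA and INHBB UMIs, against 47.3% (45.3 to 49.4) in the PCP4 cluster and 13.4% (11.2 to 15.9) in the SOST cluster. Both endings contributed to this class, with 654 and 597 cells, and allowed its levels to be compared within 1 kind of cell. INHBB was at 114 CPM (106 to 123) with ending 1 and at 54.5 CPM (49.3 to 60.1) with ending 2. FST was also higher with ending 1, at 153 CPM (144 to 163) against 63.8 CPM (58.2 to 69.8). AMHR2 went the other way, at 107 CPM (99.1 to 115) with ending 1 and 156 CPM (147 to 165) with ending 2. INHBA, at 28.4 CPM (24.4 to 32.8) and 33.7 CPM (29.7 to 38.2), had overlapping intervals. No label ties an ending to a library, fetus or stage, so these cannot be told apart in these differences.

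**Figure D2:**
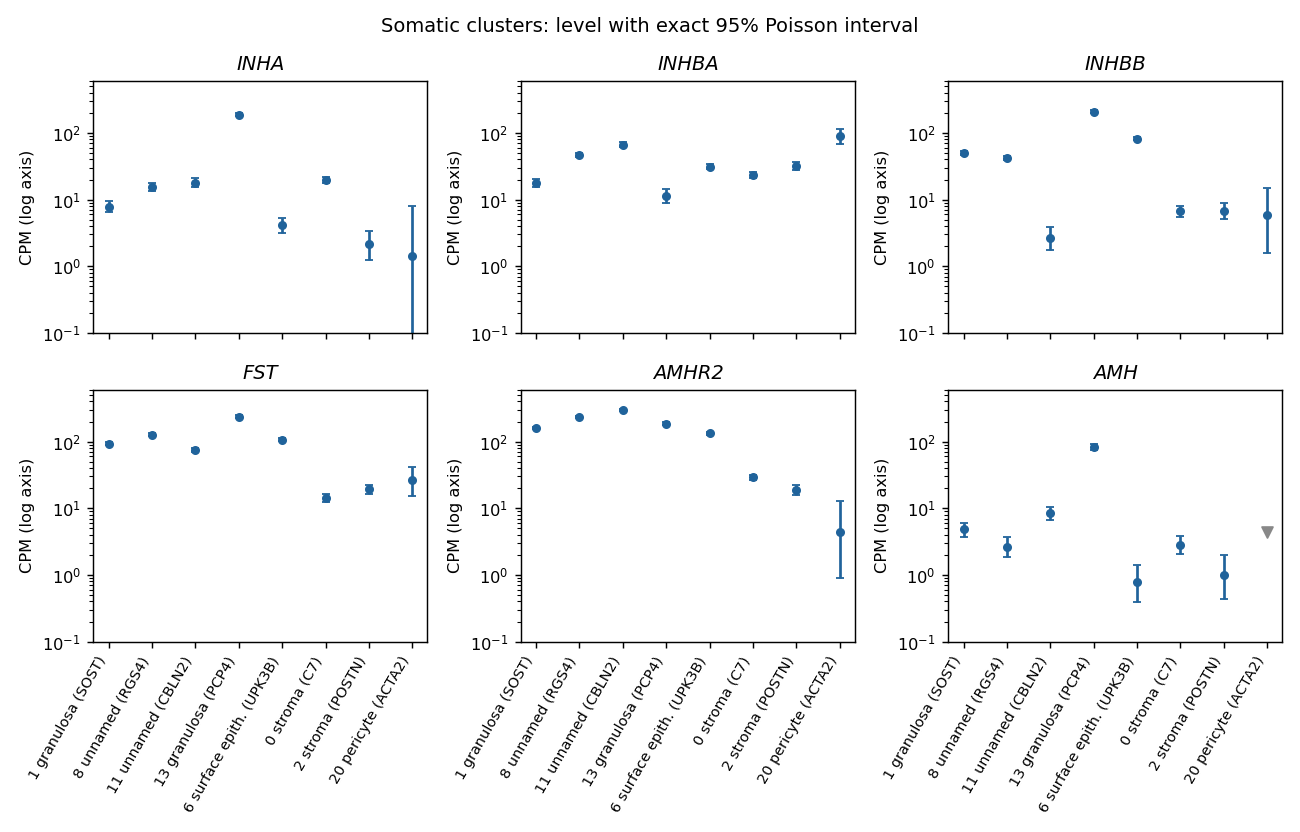
CPM (log axis) of INHA, INHBA, INHBB, FST, AMHR2 and AMH in 8 somatic clusters, with exact 95% Poisson intervals; the grey triangle marks a cluster without a UMI, drawn at the level that 3 UMIs would give. INHBA and INHBB stand in opposite order in the CBLN2 and PCP4 clusters, while AMHR2 is high in both.

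The PCP4 and CBLN2 clusters share ending 2, so they were compared within it. INHA in the 506 PCP4 cells of ending 2 was at 195 CPM (184 to 207) against 18.05 CPM in the CBLN2 cluster, INHBB at 223 CPM (211 to 236) against 2.68 CPM, and FST at 251 CPM (238 to 264) against 75.7 CPM (70.3 to 81.4). INHBA was at 10.4 CPM (7.89 to 13.4) against 66.9 CPM, and AMHR2 at 190 CPM (179 to 202) against 301 CPM (290 to 312). For all cells of these clusters, with 10 CPM added to both levels and a minimum of 10 CPM in either, 3 of the 7 genes that met the minimum (INHA, INHBB and FST) were at least 2-fold higher in the PCP4 cluster and 1 (INHBA) was at least 2-fold lower. Over all 8527 genes that met the minimum, 2.80% were higher and 3.66% lower. The median log2 ratio was 0.26 over the 7 genes and 0.02 over all.

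Compared with the SOST cluster, INHA, INHBB and FST were again at least 2-fold higher in the PCP4 cluster and none was 2-fold lower, against 3.05% and 4.66% of 8825 genes, with median log2 ratios of 0.20 over the 7 genes that met the minimum and -0.09 over all. This comparison crosses the endings. Among the 105 PCP4 cells with ending 1, INHA was at 86.3 CPM (60.4 to 119), but INHBB was at 16.8 CPM (6.74 to 34.6) and FST at 35.9 CPM (20.1 to 59.3), below the SOST cluster's ending-1 levels of 50.0 and 92.6 CPM. The higher INHBB and FST of the PCP4 cluster were therefore found in its ending-2 cells, whereas its higher INHA was found in both. Within ending 2 the SOST cluster has 35 cells.

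Within the PCP4 cluster FST was found more often in cells with INHBB, and AMHR2 less often. Its 1252 INHBB UMIs lay in 173 cells, and 67 cells with 5 or more held 84.3% of them; these 67 cells all had ending 2. For comparison, the 1125 INHA UMIs lay in 319 cells and the 1119 AMHR2 UMIs in 387. In ending-2 cells thinned to 1000 UMIs, FST was detected in 33 of 59 cells with INHBB (55.9%, 42.4 to 68.8) and in 79 of 441 without it (17.9%, 14.4 to 21.8). AMHR2 was detected in 2 of the 59 (3.39%, 0.413 to 11.7) and in 88 of the 441 (20.0%, 16.3 to 24.0). Neither pair of intervals overlapped. For INHA the intervals overlapped at this depth, with INHBB in 17.1% (9.43 to 27.5) of cells with INHA and 10.8% (8.05 to 14.2) of the others. At 2000 UMIs the shares were 63.3% against 17.7% for FST and 10.0% against 34.3% for AMHR2.

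Counted over all their UMIs, the 67 INHBB-rich cells had 680 CPM of FST (630 to 733), compared with 268 CPM (242 to 296) in 102 cells with 1 to 4 INHBB UMIs and 101 CPM (90.0 to 113) in 337 cells with none. INHA was at 317 CPM (283 to 354), 185 CPM (164 to 209) and 159 CPM (146 to 174), and AMH at 114 CPM (94.7 to 137), 96.8 CPM (81.6 to 114) and 74.3 CPM (65.0 to 84.6). AMHR2 had the reverse order, at 102 CPM (83.2 to 123), 196 CPM (174 to 220) and 217 CPM (201 to 234). Compared with cells without INHBB, the INHBB-rich cells also had more of CYP19A1, the aromatase that makes oestrogen (267 against 19.4 CPM), of FSHR, the follicle-stimulating hormone receptor (61.6 against 18.4 CPM), of NR5A2, a nuclear receptor of granulosa cells (203 against 54.6 CPM), and of the proliferation marker MKI67 (216 against 22.3 CPM). They had less of PCP4 itself (128 against 282 CPM) and of WNT6, one of the granulosa markers that the cluster carried (31.3 against 137 CPM). SERPINE2, another of these markers, went the other way (2099 against 852 CPM), as did CRHBP, a leading gene of the cluster (1607 against 711 CPM). The INHBB-rich cells had a median depth of 13430 UMIs, against 7049 UMIs in cells without INHBB. Their median doublet score was 0.0390 against 0.0509. This split, and the genes CYP19A1, MKI67, PCP4, WNT6, SERPINE2 and CRHBP, were chosen after the values were seen.

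**Figure D3:**
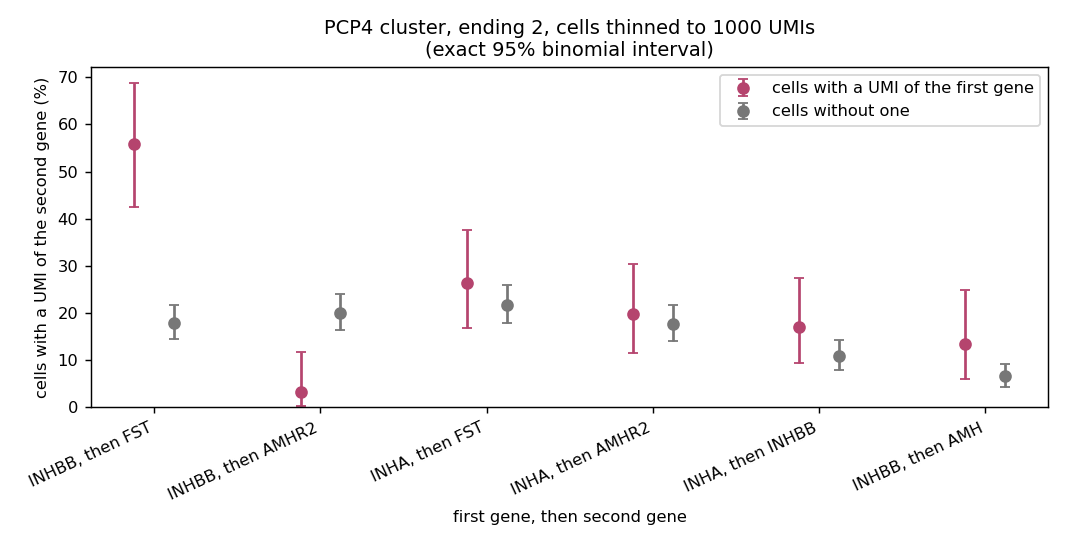
Share of PCP4-cluster cells of ending 2, thinned to 1000 UMIs, with a UMI of the second gene (y axis, %), for cells with (magenta) and without (grey) a UMI of the first gene, with exact 95% binomial intervals. INHBB-positive cells more often had FST (55.9% against 17.9%) and less often had AMHR2 (3.39% against 20.0%), whereas the intervals overlap for the other 4 pairs.

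FST, the activin-binding protein, was found in granulosa-like, surface epithelium-like and unnamed somatic clusters. It was at 236 CPM (224 to 248) in the PCP4 cluster, 128 CPM (122 to 134) in the RGS4 cluster, 109 CPM (98.1 to 120) in the mitochondria-rich cluster, 106 CPM (100 to 111) in surface epithelium-like cells, 93.1 CPM (88.2 to 98.3) in the SOST cluster and 75.7 CPM in the CBLN2 cluster. Without mitochondrial UMIs in the totals, the mitochondria-rich cluster was at 232 CPM, between the PCP4 cluster at 281 CPM and the RGS4 cluster at 149 CPM. The stroma-like clusters held 14.3 to 30.8 CPM, endothelial-like cells 8.56 CPM (6.26 to 11.4) and erythroid-like cells 6.88 CPM (4.49 to 10.1).

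Germ cells also carried FST. The deep meiotic cluster (led by RAD51AP2, with SYCP1 and SYCP3, components of the synaptonemal complex) had 85.1 CPM (77.6 to 93.1) in 378 cells, close to the SOST granulosa-like level, and 198 of these cells had a UMI. It was seen with both endings, at 70.8 CPM (59.9 to 83.1) and 93.8 CPM (83.9 to 105). After thinning, 7.41% (4.98 to 10.5) of these cells had an FST UMI, against 0.768% (0.2498 to 1.78) of erythroid-like cells, and 52.4% against 3.09% without thinning, at median depths of 13572.5 and 4677 UMIs of the cells kept. Granulosa genes were low in the same cluster. SOST, TOX3 and KITLG (kit ligand) stood at 1.36%, 1.92% and 1.89% of their level in the SOST cluster and AMHR2 at 3.90%, whereas FST stood at 91.4%. By stage, FST was at 20.7 CPM (17.3 to 24.6) in mitotic, 59.4 CPM (56.3 to 62.7) in retinoic acid (RA)-responsive, 63.1 CPM (58.2 to 68.3) in meiotic and 23.2 CPM (20.6 to 26.0) in oogenesis-stage germ cell-like clusters. Most of the RA-responsive FST UMIs, 1179 of 1330, came from a deep cluster of 966 cells at 62.2 CPM (58.7 to 65.8). There SOST, TOX3, KITLG and AMHR2 stood at 14.7%, 17.6%, 15.3% and 23.8% of their level in the SOST cluster, and FST at 66.8%. Whether part of this FST came from granulosa RNA was not tested. The meiotic value pools the deep meiotic cluster with a shallow one of 1865 cells at 33.9 CPM (28.6 to 40.0). The interval of the shallow meiotic cluster overlapped that of the larger oogenesis-stage cluster at 34.1 CPM (28.9 to 39.9).

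The β subunit INHBB took another course through the germ cell-like stages. Its level was 44.0 CPM in the mitotic cluster, which carried the pluripotency gene NANOG and had 357 of its 365 cells with ending 1, 15.6 CPM (14.003 to 17.3) in RA-responsive, 6.47 CPM (4.97 to 8.27) in meiotic and 4.16 CPM (3.10 to 5.47) in oogenesis-stage clusters. Granulosa genes were present in the mitotic cluster, with SOST at 20.6%, TOX3 at 24.4%, KITLG at 24.4% and AMHR2 at 22.7% of their level in the SOST cluster. INHBB was at 87.3% of its level there and FST at 22.3%. After thinning, 2.74% (1.32 to 4.98) of the mitotic cells had an INHBB UMI, against 0.307% (0.0372 to 1.11) of erythroid-like cells. Without thinning the shares were 35.1% and 1.48%. Erythroid-like cells give no floor for granulosa RNA here, since they held less of it. SOST, TOX3 and KITLG were at 9.53, 7.94 and 10.8 CPM in them, against 84.7, 66.3 and 102 CPM in the mitotic cluster. Whether the INHBB UMIs of the mitotic cluster came from granulosa RNA was not tested.

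Each activin receptor had its highest level in a germ cell-like cluster, with a different order over the stages. ACVR1B, the type I receptor, was at 56.9 CPM (51.2 to 63.2) in the mitotic cluster and 55.2 CPM (50.1 to 60.7) in the deep oogenesis cluster led by PADI6, and these did not differ beyond counting error. It was between 14.04 and 22.5 CPM in the other 5 germ cell-like clusters and between 12.7 and 27.6 CPM in somatic clusters other than macrophage- and erythroid-like cells. The PADI6 cluster has 143 cells with a median of 56898 UMIs, all with ending 2. Without thinning 107 of them had an ACVR1B UMI. After thinning to 1000 UMIs 2 had one (1.40%, 0.170 to 4.96), and after thinning to 2000 UMIs 12 had one (8.39%, 4.41 to 14.2). In the mitotic cluster the shares were 6.30% (4.04 to 9.31) at 1000 UMIs and 8.31% (5.68 to 11.7) at 2000 UMIs. Most cells of both clusters (282 of 365 and 132 of 143) exceed 3000 genes, and with 200 to 3000 genes ACVR1B in the germ cell-like class was 16.5 CPM instead of 30.3 CPM.

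ACVR2A was highest in the deep meiotic cluster. The deep meiotic cluster stood at 52.5 CPM (46.7 to 58.9), with 50.4 CPM (41.2 to 60.9) and 53.9 CPM in the separate endings, and the shallow meiotic cluster at 32.3 CPM (27.0 to 38.2). Surface epithelium-like cells came after the deep cluster, at 33.7 CPM (30.7 to 36.9). The interval of the shallow meiotic cluster overlapped theirs and that of the larger oogenesis-stage cluster at 29.3 CPM (24.5 to 34.7). By stage, meiotic clusters together had 43.8 CPM (39.8 to 48.2), compared with 25.0 CPM (21.3 to 29.3) in mitotic, 25.2 CPM (23.1 to 27.3) in RA-responsive and 27.0 CPM (24.2 to 30.1) in oogenesis-stage cells, whose intervals overlapped. The PCP4 cluster, at 14.5 CPM (11.6 to 17.9), was below the SOST cluster at 26.6 CPM (24.0 to 29.4).

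ACVR2B, the other type II receptor, had the fewest UMIs of the 8 genes, 1771 in 1507 cells. It was at 23.8 CPM (20.1 to 27.9) in the mitotic cluster, 22.5 CPM (20.6 to 24.5) in RA-responsive, 17.1 CPM (14.6 to 19.9) in meiotic and 14.5 CPM (12.5 to 16.8) in oogenesis-stage germ cell-like cells. Granulosa-like cells together had 9.13 CPM, a log2 ratio to germ cell-like cells of -1.11 (-1.34 to -0.89). With 10 CPM added, this ratio was -0.63 and did not reach 2-fold. Stroma-like clusters held 4.76 to 11.7 CPM.

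**Figure D4:**
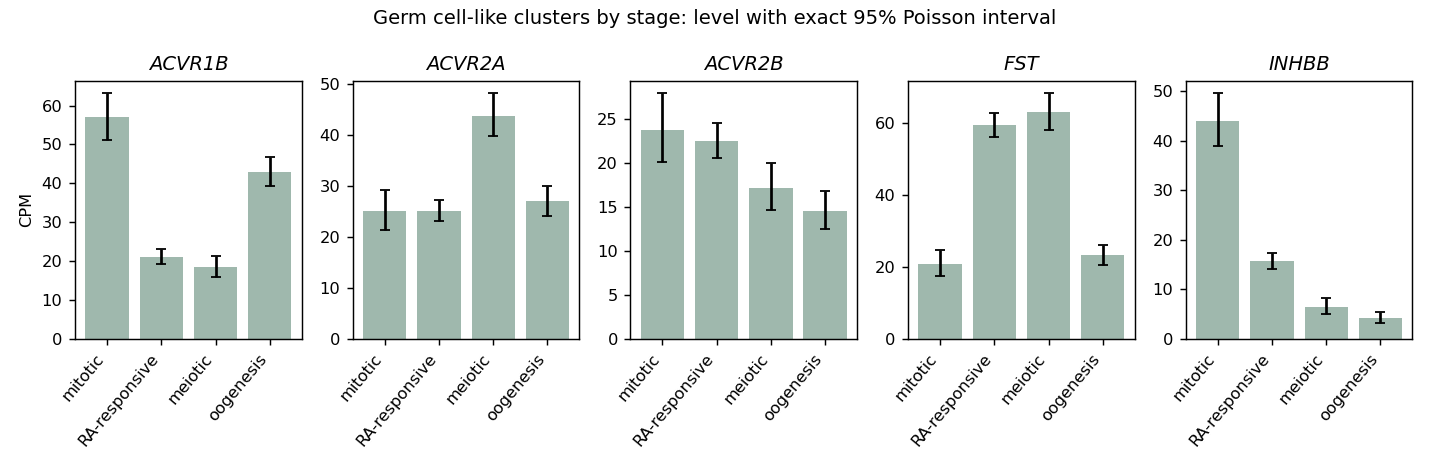
CPM of ACVR1B, ACVR2A, ACVR2B, FST and INHBB (y axes, each from 0) in the germ cell-like clusters of each stage, with exact 95% Poisson intervals as error bars. ACVR1B is high in mitotic and oogenesis-stage cells, ACVR2A in meiotic cells, FST in RA-responsive and meiotic cells, and INHBB in mitotic cells.

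AMHR2 was high in the 3 granulosa-like clusters, in surface epithelium-like cells and in the 3 unnamed clusters. It was highest in the CBLN2 cluster at 301 CPM, then in the RGS4 cluster at 235 CPM (227 to 244), the PCP4 cluster at 187 CPM (176 to 198), the SOST cluster at 162 CPM (155 to 168), surface epithelium-like cells at 133 CPM (127 to 139) and the shallow granulosa-like cluster at 107 CPM (86.4 to 131). Among these, only the intervals of the last pair of neighbours overlapped, and the mitochondria-rich cluster followed at 99.3 CPM (89.1 to 110), or 212 CPM without mitochondrial UMIs in the totals. In the CBLN2 and RGS4 clusters 83.1% and 86.5% of cells had an AMHR2 UMI, and 27.5% (24.4 to 30.7) and 21.7% (19.2 to 24.4) after thinning, against 4.03% and 0.461% of erythroid-like cells. Stroma-like clusters held 18.9 to 29.2 CPM and the pericyte-like cluster 4.35 CPM (0.898 to 12.7). In the germ cell-like class AMHR2 was at 24.1 CPM, and this value fell to 12.3 CPM when the 8% of cells with the highest doublet scores were removed and the rest clustered again.

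Its ligand was much more restricted. AMH was at 83.2 CPM (76.0 to 90.8) in the PCP4 cluster, 23.7 CPM (18.9 to 29.5) in the mitochondria-rich cluster and 8.46 CPM (6.73 to 10.5) in the CBLN2 cluster. In each of the other 18 clusters it was at 4.83 CPM or less, without a UMI in macrophage- and pericyte-like cells, where 3 UMIs would have been 2.76 and 4.35 CPM. Relative to its own range over the clusters, AMH was thus low where AMHR2 was highest, and both genes were high in the PCP4 cluster.

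Summed over the granulosa-like class (3654 cells), INHA, INHBB, FST and AMHR2 stood out from stroma and germ cells, and INHA alone from the surface epithelium. INHBA was at 15.96 CPM, 0.615-fold the stroma-like level (log2 ratio -0.70, -0.89 to -0.51). It was 4.30-fold the germ cell-like level, but did not reach 2-fold with 10 CPM added. INHA was at 58.4 CPM, 3.89-fold the stroma-like level (log2 ratio 1.96, 1.79 to 2.13), INHBB at 94.1 CPM or 11.6-fold, FST at 131 CPM or 7.58-fold and AMHR2 at 166 CPM or 6.52-fold. These 4 of the 7 genes that met the minimum were at least 2-fold higher with 10 CPM added, and none was 2-fold lower, against 5.92% higher and 5.39% lower of 9014 genes. The median log2 ratio with 10 CPM added was 1.45 over the 7 genes and 0.11 over all. The same 4 of 8 were at least 2-fold higher than in germ cell-like cells, and none lower, against 11.2% and 13.8% of 9525 genes, with medians of 1.12 and -0.07. In the comparison with surface epithelium-like cells INHA alone was higher, 14.1-fold (log2 ratio 3.81, 3.43 to 4.22), and none lower, against 2.66% and 3.42% of 8922 genes, with medians of 0.17 and 0.07. There, INHBB, FST and AMHR2 differed by 1.14-, 1.24- and 1.25-fold. The INHA value of the class rests on the PCP4 cluster: where clustering at resolution 0.4 joined that cluster with the RGS4 cluster and left both unnamed, INHA in the class was 7.14 CPM, and no gene was then 2-fold higher than in the surface epithelium.

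The endings gave different counts. In ending 2, whose granulosa-like cells are mostly of the PCP4 cluster, INHA, INHBB and FST (3 genes) were at least 2-fold higher than in surface epithelium-like cells and 1, INHBA, was lower, against 4.08% and 6.13% of 8760 genes. In ending 1, mostly of the SOST cluster, none was higher and 1, INHBB, was lower, against 2.63% and 3.11% of 8939 genes. Germ cell-like cells had 46.8 CPM of FST with ending 1 and 46.4 CPM with ending 2, and overlapping levels of ACVR2A, INHBA and AMHR2, but the intervals of 4 genes did not overlap. INHBB was at 20.2 CPM (18.5 to 22.0) with ending 1 and 8.78 CPM (7.65 to 10.02) with ending 2, and ACVR2B at 21.5 CPM (19.8 to 23.4) and 17.8 CPM (16.1 to 19.5). ACVR1B was at 28.0 CPM (26.0 to 30.1) and 32.8 CPM (30.6 to 35.1), and INHA at 1.59 CPM (1.14 to 2.15) and 3.87 CPM (3.13 to 4.72). The endings hold different germ cell-like clusters. The mitotic cluster has 357 of 365 cells with ending 1. The oogenesis-stage clusters have 945 of 1080 and all 143 cells with ending 2. Ending and mix of clusters cannot be told apart in these class levels.

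**Figure D5:**
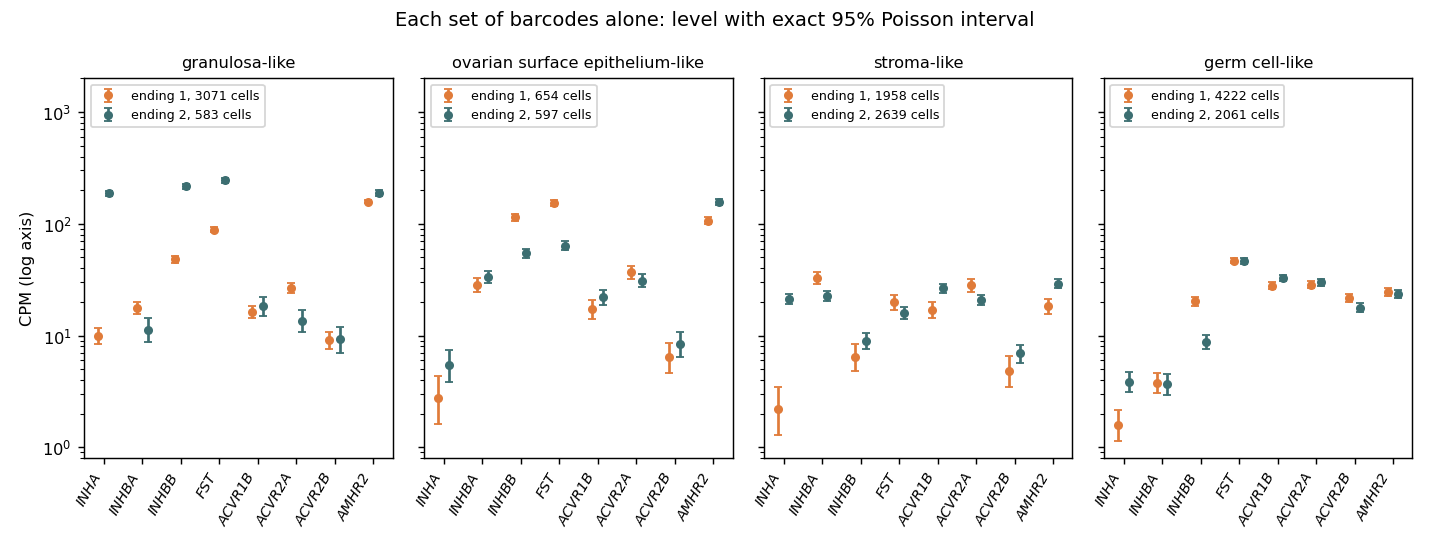
CPM (log axis) of the 8 genes in 4 classes of cells, for barcodes ending in 1 (orange) and in 2 (green), with exact 95% Poisson intervals. INHA, INHBB and FST are higher with ending 2 in granulosa-like cells, where ending 2 is mostly the PCP4 cluster, whereas INHBB and FST are higher with ending 1 in surface epithelium-like cells.

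Other genes of the pathway came from 6 lists with 51 genes, of which 47 were in the table. Of the other type I and type II receptors, 6 of 8 met the minimum against stroma-like cells and 1, BMPR1B, a BMP receptor, was at least 2-fold higher in granulosa-like cells (105 against 11.1 CPM). Of the binding proteins and co-receptors, 2 of 4 were lower: TGFBR3, the inhibin co-receptor, at 70.4 against 215 CPM and FSTL1, a follistatin-like secreted protein, at 79.3 against 287 CPM. Of the SMADs and inhibitors, 1 of 11 was lower, PMEPA1, a TGF-β-induced inhibitor, at 22.0 against 77.9 CPM, and none was higher. All 3 convertases that met the minimum were within 2-fold. Among the upstream factors 3 of 4 were higher, namely NR5A2, FSHR and WT1, and of the ligands AMH, 1 of 2. Over all lists this made 5 of 30 higher and 3 lower, against 5.92% and 5.39% of all 9014 genes that met the minimum. The single lists hold too few genes to be set against these shares.

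Against germ cell-like cells, 7 of 29 pathway genes were higher in granulosa-like cells, namely AMH, TGFBR3, SMAD3 (81.9 against 19.2 CPM), the convertase PCSK5, NR5A1, NR5A2 and WT1. GDF9, the oocyte ligand, was the 1 that was lower, and stood at 342 CPM (332 to 353) in the oogenesis-stage clusters. Of all 9525 genes that met the minimum, 11.2% were higher and 13.8% lower. Against surface epithelium-like cells 3 of 29 were higher (AMH, BMPR1B and NR5A2) and 2 lower, FSTL3, a second follistatin-like binder of activin, at 23.6 against 64.9 CPM, and SMAD9 at 12.03 against 34.2 CPM. There, 2.66% of 8922 genes were higher and 3.42% lower.

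The binding proteins also differed between the PCP4 and CBLN2 clusters. TGFBR3 was at 136 CPM in the PCP4 and 13.4 CPM in the CBLN2 cluster, a log2 ratio of 3.34 (3.07 to 3.62), whereas FSTL3 was at 11.2 and 150 CPM, a log2 ratio of -3.75 (-4.13 to -3.40). TGFBR3 was thus higher in the cluster with more INHA, INHBB and FST, and FSTL3 in the cluster with more INHBA and AMHR2. The split was not clean, with AMHR2 at 187 CPM in the PCP4 cluster and FST at 75.7 CPM in the CBLN2 cluster. Stroma-like cells had more TGFBR3 than the PCP4 cluster. In all, 3 of 27 pathway genes were higher in the PCP4 cluster (AMH, TGFBR3 and NR5A2) and 3 lower (ACVR1C, FSTL3 and PCSK5). The shares over all 8527 genes were 2.80% and 3.66%. The PCP4 cluster also differed from the SOST cluster in 5 of 29 pathway genes that were higher (AMH, BMPR1B, TGFBR3, NR5A2 and FSHR) and 3 that were lower (TGFBR2, PMEPA1 and PCSK5). For that pair of clusters the shares over all 8825 genes were 3.05% and 4.66%.

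Across the 21 clusters, which share 2 libraries and differ in depth, the genes most like each member were named by Pearson's r of log2(CPM + 10), as a description. INHA was most like LAMA1 (0.92), AMH (0.91) and CYP19A1 (0.90), and INHBA most like TMEM51 (0.94), ARHGAP24 (0.92) and ROR1 (0.88). For INHBB they were EXOC1L (0.87), GNRHR (0.86) and MYLK3 (0.85), and for FST ZNF219 (0.87), PRKAR2B (0.86) and MSRB2 (0.85). The receptors paired with ASB7, CUL1 and TUBD1 (ACVR1B, 0.85 to 0.87), with MNAT1, ZNF507 and NF1 (ACVR2A, 0.93), with TMC7, POLRMT and WDR5 (ACVR2B, 0.92 to 0.93) and with TST, F3 and IRX5 (AMHR2, 0.94 to 0.96). Among the members themselves r was 0.72 for FST and AMHR2, 0.70 for INHBB and FST and 0.67 for INHA and INHBB, but 0.12 for INHBA and INHBB.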

How the data were processed

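Single-cell RNA of whole fetal ovaries was measured in 1 library per stage. The authors deposited 1 table of UMI counts, not normalised, obtained with Cell Ranger 3.0.2 and Seurat against the Macaca_fascicularis_5.0 genome. Each deposited gene is in at least 3 cells and each cell has at least 200 genes, and 4675 cells exceed 3000 genes. The endings share 27 barcodes. All cells were used.

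Seurat 5.3.0 (R 4.3.3) grouped cells on 2000 variable genes without the members and pathway lists (18 components, 20 neighbours, resolution 0.6). A name needed at least 3 markers at 1.5-fold in at least 5% of cells. Scrublet (scanpy 1.11.5) called 0 cells, so no doublets were removed and the 8% with the highest scores were removed as an alternative. Levels are summed UMIs per 1000000 (CPM) with exact Poisson intervals, and shares have exact binomial intervals (scipy 1.17.1). Free RNA was not corrected. Fold calls add 10 CPM and need 10 CPM in either group. Named genes are the members, the pathway genes and the 3 most like genes with at least 20 CPM in a cluster. Members, lists and clusters compared were chosen with earlier results of these data known. The procedures were tested on simulated data. Mitochondrial and gene limits, other resolutions and each ending alone were alternatives.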

Additional observations from a re-analysis of the deposited data

How the results depend on the processing

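Counts of genes at least 2-fold higher or lower in granulosa-like cells were unchanged when all genes could enter the variable genes and at resolution 1.0, and, in alternatives added after seeing the data, without mitochondrial UMIs in the totals and with at most 3000 genes and names kept. The count higher than germ cell-like went from 4 to 5 without the 8% of cells with the highest doublet scores and to 3 with the mean of single-cell CPM. With the RGS4 and CBLN2 clusters counted as granulosa-like (added later) it was 5, the count higher than stroma-like was 3, and in the class INHA went from 58.4 to 36.5 CPM, INHBA from 15.96 to 36.4, INHBB from 94.1 to 58.5, FST from 131 to 118 and AMHR2 from 166 to 217. Against surface epithelium-like cells (1 higher, 0 lower) they became 0 and 0 with 200 to 3000 genes and at resolution 0.4, 0 and 1 with at most 10% mitochondrial UMIs and with ending 1, and 3 and 1 with ending 2. With the cluster names kept and cells limited to at most 10% mitochondrial UMIs (also added later), 0 was higher. Against germ cell-like cells 4 higher became 2 with 200 to 3000 genes and with ending 1, and 1 with at most 10% mitochondrial UMIs, where 4 higher than stroma-like became 2. That limit keeps 85 of the 611 PCP4 cells, at 142 CPM of INHA.

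Log2 ratios, PCP4 over SOST cluster with 10 CPM added, reversed in ending 1 (105 PCP4 cells) for INHBB, from 1.86 to -1.16, and FST, from 1.25 to -1.16. There INHA went from 3.47 to 2.44 and INHBA from -0.38 to 0.30, and INHBA was -1.03 in ending 2. With cluster names kept, INHBB was 1.27 at up to 10% mitochondrial UMIs. PCP4 over CBLN2, FST rose from 1.52 to 2.47 with that limit (25 CBLN2 cells) and INHBB was 3.52, not 4.11, with at most 3000 genes. The cause of these moves was not tested. No paired analysis was possible because the cells carry no sample label. Shares of cells moved with the depth of thinning, so they are compared only at 1 depth.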
